A study of Ovis aries with 95 samples.

Results

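The cortex and the hippocampus of fetal sheep were compared at 80 days (d) of gestational life, the youngest age of an ontogeny of the ovine fetal brain. The comparison took the 4 cortex and the 4 hippocampus arrays whose labels give that age, 8 of the 95 arrays of the series, and all probes for ovine genes. The series holds 4 brain regions (cortex, hippocampus, hypothalamus and brainstem) from 80 to 145 d of gestation (at 80, 100, 120, 130 and 145 d) and in lambs 1 d old. No manipulation of the fetuses before tissue collection is described, and the labels give no breed, genotype or treatment that would set one group apart. The cortex sample was a piece of frontal cortex and the hippocampus sample was both hippocampi of a fetus, each taken whole, so every value is an average over all the cells of the piece. Each group included 1 set of twins that the labels do not mark, and the labels do not say whether arrays with the same number in both regions came from the same fetus. p-values therefore measure the spread between these arrays.

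The hippocampus and the neocortex arise from neighbouring parts of the dorsal telencephalon. The cortical hem, a strip of signalling tissue that secretes WNT and BMP proteins, borders the future hippocampus, and the granule neurons of the dentate gyrus, which express the transcription factor NEUROD1, are born over a longer period than most cortical neurons. The hippocampus of the adult is also rich in glucocorticoid receptors and takes part in the feedback control of the stress axis. Microglia enter the brain early in development, and the choroid plexus, which makes cerebrospinal fluid, lies against the medial wall of the hemisphere beside the hippocampus.

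Levels are given as the log2 of the background-corrected and quantile normalized intensity of a probe, or of the mean of a gene's probes, and a difference is the hippocampus mean minus the cortex mean on that scale. A probe's brightness depends on its sequence, so levels were compared only between arrays and never between genes. Gene spots called well above background by the scanner software made up 74.6, 74.9, 74.8 and 77.7% on cortex arrays 1 to 4 and 81.7, 81.4, 75.2 and 74.7% on hippocampus arrays 1 to 4, of all gene spots (75.5% ± 1.47 against 78.3% ± 3.86, SD, n = 4, exact permutation test, two-sided p = 0.229, where 0.0286 is the smallest p that 4 arrays against 4 allow). Hippocampus arrays 3 and 4 stood apart from the others. The median intensity before normalization was 168 and 155 on these arrays against 249 and 251 on hippocampus arrays 1 and 2 and 243 to 329 on the cortex arrays. Across the face of the array, the signal relative to the median of the 8 arrays varied between 25 zones by 0.51 and 0.84 on hippocampus arrays 3 and 4, and by 0.068 to 0.21 on the other 6 arrays. The array carries 197 pairs of measured probes that share at least 55 of their 60 bases. The difference between the probes of a pair departed from the pair's median over the 8 arrays by a median of 0.29 and 0.31 on hippocampus arrays 3 and 4, and by 0.050 to 0.090 on the other 6 arrays. The departure exceeded 1 for 15.8 and 17.9% of the pairs on hippocampus arrays 3 and 4, against 0 to 2.04% elsewhere.

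**Figure D1:**
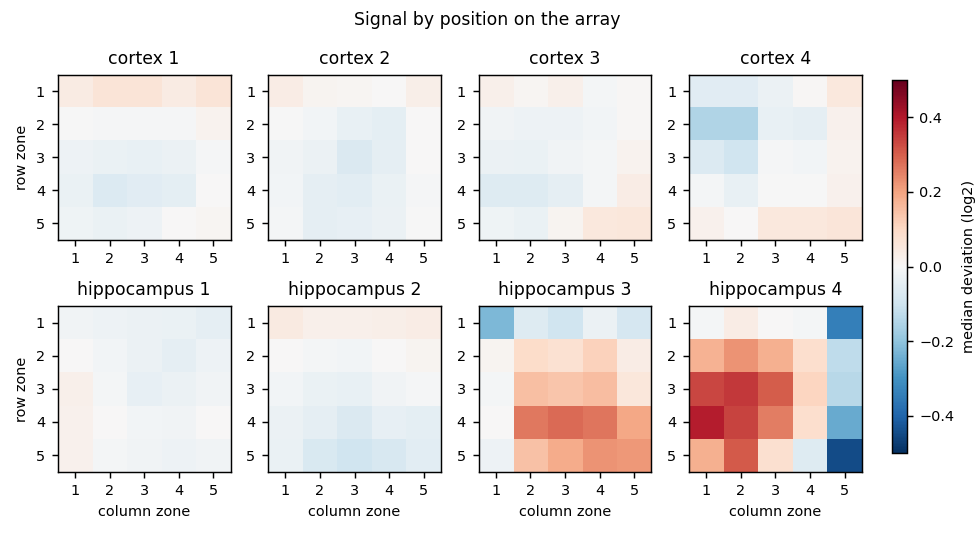
Median deviation of the gene spots (log2, colour) from the median of the 8 arrays in 25 zones of each array, 5 zones of rows by 5 zones of columns. Hippocampus arrays 3 and 4 range over 0.51 and 0.84 between zones, and the other 6 arrays over at most 0.21.

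Far more genes were higher in the hippocampus than in the cortex. Of 11626 genes tested with limma, 549 were called higher in the hippocampus (4.72% of the genes tested) and 141 higher in the cortex (1.21%) at a Benjamini-Hochberg adjusted p under 0.05, and 218 and 67 of these differed by more than 2-fold. The median difference over all genes was 0.03, and the called differences had a median size of 0.90 and were 0.44 or larger. The arrays of the regions did not overlap for 548 of the 549 and 139 of the 141. Over all genes tested, 1378 had every hippocampus array above every cortex array and 728 the reverse. Lack of overlap was also a condition for the genes named as the largest differences. A gene symbol was known for 773 of the genes tested, of which 57 were called higher in the hippocampus (7.37%) and 7 higher in the cortex (0.906%). The 4 arrays of cortex lay on 3 slides and the 4 of hippocampus on 3 others, and no slide held both regions, so slide and region cannot be told apart. With the slide as a random block, 7 genes were called, 6 of them higher in the hippocampus, and HSD11B1 was the only one with a symbol. Without quantile normalization, with each array centred on its median, 59 genes were called, 35 higher in the hippocampus and 24 higher in the cortex. The count was 423 without hippocampus arrays 3 and 4, of which 309 were among the 690. It was 163, 412, 242 and 392 without cortex array 1, 2, 3 or 4, and 427 without hippocampus array 3. With a smooth surface over rows and columns removed from each array it was 969, of which 662 were among the 690, all in the same direction. The 22 named genes with the largest differences (15 higher in the hippocampus and 7 higher in the cortex) kept their direction in every one of these fits, and their calls in 21 of 22 without hippocampus arrays 3 and 4, 14 of 22 without cortex array 1, 10 of 22 with median centring and 1 of 22 with the slide block.

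**Figure D2:**
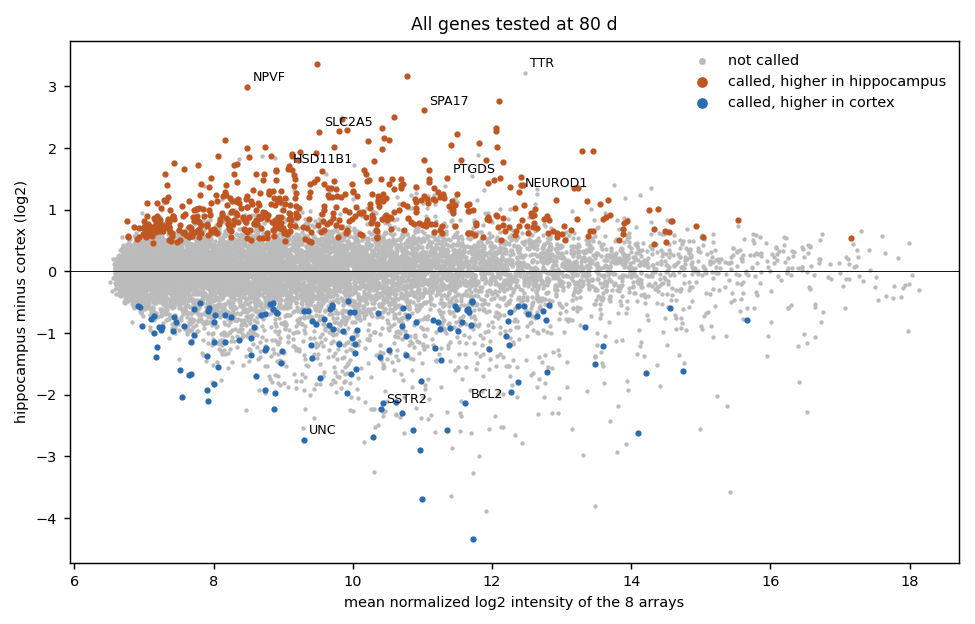
Hippocampus minus cortex difference (log2) against the mean level of the 8 arrays (log2 intensity) for the 11626 genes tested, with called genes in colour. The 549 genes called higher in the hippocampus outnumber the 141 called higher in the cortex.

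Probes are 60 bases long. The sequences of 8 probes are printed here, bases 1 to 30 as the files give them, because these probes carry the largest differences or are the examples that follow. The first pair belongs to HSD11B1, the gene whose call held in every setting, and the next probes to NPVF and UNC, the called genes with a symbol that differed most in each direction. The following pair belongs to CRYAA and shows how far near-identical probes can part. The last are the probes with the largest rise and the largest fall among called genes without a symbol and without overlap between the regions. The files name them by an expressed sequence tag only.
HSD11B1 first probe: atgtcgcattggctttaacttcagttcatt
HSD11B1 second probe: ctgcgaaattgacagtatccatagatataa
NPVF first probe: aaggtttggaagaacgatagcagccaaaag
UNC first probe: ggataccctgagcactctccgcgttaccgg
CRYAA first probe: tcccccttctccagttccttttccttcttc
CRYAA second probe: ttcccccttctccagttccttttccttctt
A_70_P045016: tagcatagtggacaaggttccattttcatg
A_70_P032706: ggcgggttttgtatggtacgttgatactga

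Genes of corticosteroid signalling were led by HSD11B1, the enzyme that regenerates active cortisol from cortisone inside cells. Its level was 8.13, 8.33, 8.38 and 8.08 on the cortex arrays and 9.67, 9.58, 10.02 and 10.32 on the hippocampus arrays. All hippocampus arrays lay above all cortex arrays, and the groups were separated by more than 1 on the log2 scale. The difference was 1.67 (SE 0.18, adjusted p = 0.00393), which is 3.18-fold, and its probes, which share no stretch of sequence, gave 1.91 and 1.43. With the slide as a random block it was 1.75 (SE 0.21, adjusted p = 0.0334). The list of steroid receptors and enzymes, which also holds receptors of other hormones, had 15 entries for 14 genes tested. Of these, 2 were called higher in the hippocampus (14.3%, beside 7.37% of all genes with a symbol) and 0 higher in the cortex, with a median difference of 0.16. HSD11B1 was the only called gene of steroid signalling itself, and the other was LEPR, the leptin receptor, at 6.61, 6.76, 6.62 and 6.60 in cortex and 7.0, 7.03, 7.34 and 7.48 in hippocampus (0.56, SE 0.14, adjusted p = 0.0491), a dim gene whose call was lost in 16 of 27 alternatives. NR3C1, the glucocorticoid receptor, was at 6.81, 6.71, 7.11 and 6.71 in cortex and 6.84, 6.98, 7.06 and 7.14 in hippocampus. These levels overlapped close to background (difference 0.17, SE 0.13, adjusted p = 0.468). CRHBP, which binds corticotropin-releasing hormone outside cells, had a difference of -0.44 (SE 0.18, adjusted p = 0.176), and ESR1, an estrogen receptor, of 0.43 (SE 0.23, adjusted p = 0.288).

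The largest called differences among genes with a symbol belonged, in each direction, to a neuropeptide. NPVF, the precursor of the RFamide-related peptides, was at 6.63, 7.93, 6.62 and 6.78 on the cortex arrays and 9.78, 9.26, 10.58 and 10.31 on the hippocampus arrays. It was well above background on 2 of the 4 cortex arrays and on all hippocampus arrays, and cortex array 2 was the highest of the cortex by more than 1. The difference was 2.99 (SE 0.37, adjusted p = 0.00554), and 5.58 with Agilent's processed signal, so its size depended on that choice. UNC, named in the files for urocortin, a peptide of the corticotropin-releasing hormone family, showed the reverse. It was at 10.44, 10.08, 11.80 and 10.32 in cortex and 8.06, 7.95, 7.97 and 7.73 in hippocampus. Every cortex array was above every hippocampus array by at least 2, and the difference was -2.73 (SE 0.34, adjusted p = 0.00555). The UNC probes share 59 of their 60 bases and gave -2.72 and -2.75, so they are not independent measurements. SSTR2, a receptor for somatostatin, was also higher in cortex, at 11.78, 11.14, 11.55 and 11.61 against 10.07, 9.85, 8.87 and 8.39 (-2.23, SE 0.36, adjusted p = 0.0124). The hippocampus arrays spread widely here, arrays 3 and 4 being the lowest.

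Of the 13 neuropeptides and hormones tested, 2 were called higher in the hippocampus (15.4%, beside 7.37% of all genes with a symbol). UNC was called higher in the cortex, and the median difference was 0.24. NPVF was not on that list. The pair called higher were GRP, gastrin-releasing peptide (1.14, SE 0.16, adjusted p = 0.00747), and TAC3, which encodes neurokinin B (0.76, SE 0.14, adjusted p = 0.0187). GRP was at 8.25, 8.62, 8.33 and 8.34 in cortex and 9.82, 9.18, 9.56 and 9.55 in hippocampus. Transmitter receptors and transporters held 21 tested genes under 23 names, of which 1 was called (4.76%, below the 7.37% of all genes with a symbol). The called gene was TRHR, the receptor of thyrotropin-releasing hormone, at 6.70, 6.91, 6.53 and 6.39 in cortex, where 1 of 4 arrays was well above background, and 7.33, 7.98, 8.31 and 8.50 in hippocampus (1.40, SE 0.25, adjusted p = 0.0169). With the processed signal the difference was 4.20 for TRHR and 2.99 for TAC3, both dim in cortex. The list median was 0.07. ADORA3, an adenosine receptor, and BRS3, a bombesin receptor, were called higher in the hippocampus outside these lists.

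**Figure D3:**
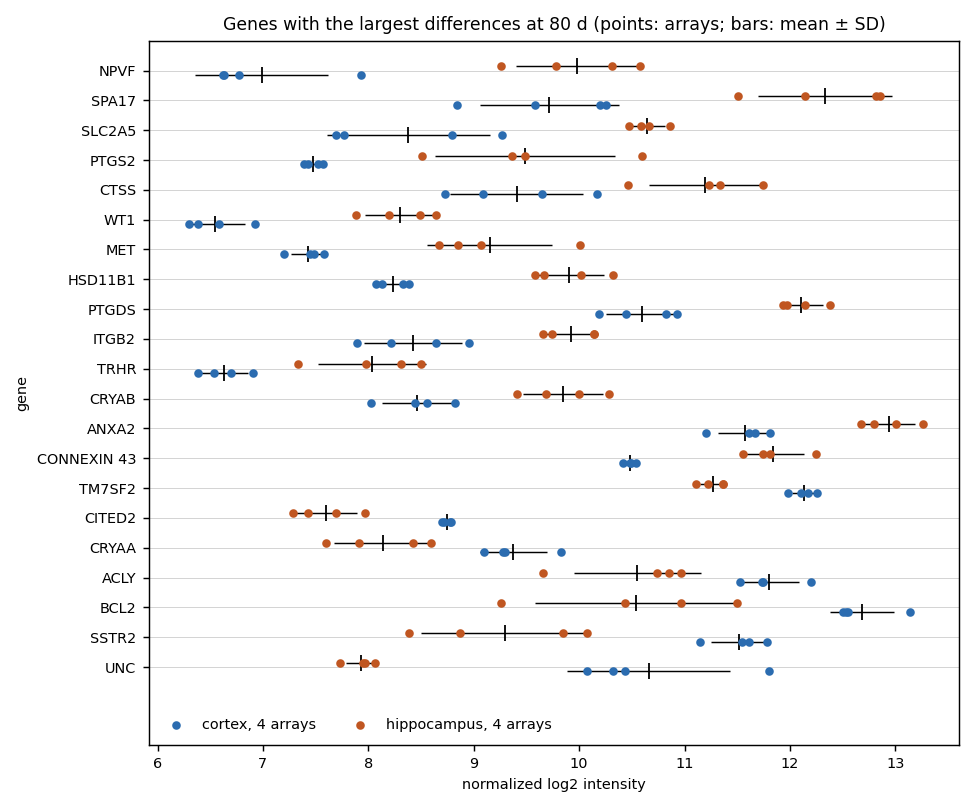
Normalized log2 intensity of 21 of the 22 genes with the largest called differences, by array (4 cortex points in blue and 4 hippocampus points in orange per gene), with bars for the mean ± SD. The upper 14 genes are higher on every hippocampus array, and the lower 7, from TM7SF2 to UNC, are higher on every cortex array. This separation was a condition of their choice.

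Few regional markers were measured. They were 7 of 56 genes listed for the hippocampal field, the dentate gyrus and the cortical hem, and 3 of 50 listed for neocortical layers. Most defining markers of both regions had no named probe that was tested. Of the 7, 3 were called higher in the hippocampus (42.9%, beside 7.37% of all genes with a symbol) and 0 higher in the cortex, with a median difference of 0.37. NEUROD1 was at 12.12, 11.73, 11.63 and 11.50 in cortex and 12.94, 13.01, 13.02 and 13.15 in hippocampus. The hippocampus arrays lay within 0.21 of each other and above every cortex array (1.28, SE 0.15, adjusted p = 0.00437), and probes that share no sequence gave 1.35 and 1.22. WNT-5A, a secreted WNT protein, was at 8.87, 8.79, 9.14 and 8.87 in cortex and 9.33, 9.71, 9.95 and 9.58 in hippocampus (0.73, SE 0.16, adjusted p = 0.0317). LEF-1, a transcription factor that acts downstream of WNT signals and is needed for the dentate gyrus in mice, was at 6.98, 6.96, 6.83 and 6.81 in cortex and 7.20, 7.36, 7.40 and 7.45 in hippocampus (0.46, SE 0.11, adjusted p = 0.0465). Neither call was steady: it was lost in 12 of 26 alternatives for WNT-5A and in 17 of 26 for LEF-1. NEUROD1 was the 1 called member of the list without any one cortex array. BMP7, a signal of the cortical hem, had a difference of 0.37 (SE 0.16, adjusted p = 0.192). The other uncalled members were BMP4 (0.07, SE 0.16, adjusted p = 0.826), BMP6 (0.09, SE 0.20, adjusted p = 0.816) and CXCR4 (-0.42, SE 0.43, adjusted p = 0.588). At 80 d NEUROD1 and WNT-5A were not particular to the hippocampus. NEUROD1 had a mean of 12.72 in brainstem, with arrays up to 13.61, beside 13.03 in hippocampus. WNT-5A had 9.99 in brainstem, above 9.64 in hippocampus. LEF-1 had its highest mean in hippocampus (7.35, beside 7.07 in hypothalamus and 6.79 in brainstem).

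None of the 3 neocortical genes was called in either direction, and their median difference was 0.21. PAX6, a transcription factor of cortical progenitors, was at 8.12, 10.01, 8.11 and 10.05 on cortex arrays 1 to 4, and at 9.02, 8.98, 9.08 and 9.05 on the hippocampus arrays. Cortex arrays 2 and 4 lay almost 2 above cortex arrays 1 and 3, with the hippocampus between them, and the difference of the means was -0.04 (SE 0.47, adjusted p = 0.967). FOS, an immediate early gene, had a difference of 0.21 (SE 0.22, adjusted p = 0.596). Of 10 genes of radial glia and progenitors and 15 of the cell cycle, 0 were called in either direction (medians 0.10 and 0.18). The brightest progenitor genes were YBX1, a nucleic acid-binding protein, with a difference of 0.05 (SE 0.16, adjusted p = 0.864), and VIM, vimentin, with 0.74 (SE 0.22, adjusted p = 0.0845). Differences of the cell cycle genes ran from -1.06 for MYC to 1.1 for CCND2, cyclin D2 (SE 0.38, adjusted p = 0.124), and YWHAE, the brightest beside CCND2, had -0.17 (SE 0.20, adjusted p = 0.641). CCND2 ranged from 11.48 to 12.73 in cortex and from 12.34 to 13.79 in hippocampus, and the groups overlapped. The 3 genes of neuronal structure that were tested had a median of -0.35 and none was called. The brightest of these, YWHAH, was at 12.50 on hippocampus array 4 against 15.81 to 16.40 on the other 7 arrays.

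Part of the glial genes were higher in the hippocampus. The astrocyte list had 12 entries tested for 10 genes, since connexin 43 and a glutamate transporter each appear under both of their names. Of the 10 genes, 3 were called higher in the hippocampus (30%, beside 7.37% of all genes with a symbol) and 0 higher in cortex, and the entries had a median of 0.44, against 0.03 over all genes and 0.10 over the genes with a symbol. GFAP, the intermediate filament of astrocytes, was at 7.57, 8.19, 7.87 and 8.14 in cortex and 8.70, 8.91, 8.66 and 8.73 in hippocampus (0.81, SE 0.16, adjusted p = 0.0231). Connexin 43, the gap junction protein of astrocytes and radial glia, is represented under both of its names. CONNEXIN 43 was at 10.48, 10.54, 10.42 and 10.49 in cortex and 11.75, 11.56, 12.24 and 11.81 in hippocampus (1.36, SE 0.15, adjusted p = 0.00393). GJA1 differed by 0.75 (SE 0.11, adjusted p = 0.0102) on other probes. CD9, a tetraspanin that many cell types carry, differed by 1.14 (SE 0.27, adjusted p = 0.0455) and lost its call in 12 of 27 alternatives. The call of GFAP was lost in 8 of 26 alternatives. With median centring 0 of the 12 entries were called, and without cortex array 1 or 3 the count of entries was 2. The glutamate transporters of astrocytes, EAAT1 and EAAT2 (also named GLT-1), were not called. In whole tissue, fewer cells of a type and less RNA per cell cannot be told apart, here and in the cell types that follow.

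Microglial and other myeloid genes held the highest share of calls among the lists of more than 5 genes, with 6 of 13 tested called higher in the hippocampus (46.2%, beside 7.37% of all genes with a symbol) and 0 higher in the cortex, and a median of 0.47. CTSS, the lysosomal protease cathepsin S, was at 9.09, 10.17, 8.73 and 9.65 in cortex and 11.75, 11.24, 10.47 and 11.34 in hippocampus (1.79, SE 0.35, adjusted p = 0.0243). ITGB2, the beta chain of the leukocyte integrins, was at 8.21, 8.95, 7.89 and 8.64 in cortex and 10.14, 9.74, 10.14 and 9.66 in hippocampus (1.49, SE 0.24, adjusted p = 0.012). The groups did not overlap for either gene, and in both cortex arrays 2 and 4 were the highest of the cortex. FCER1G, a signalling chain of Fc receptors, differed by 1.31 (SE 0.28, adjusted p = 0.0301), and SLC11A1, a metal transporter of phagocyte vesicles, by 0.89 (SE 0.21, adjusted p = 0.0416). Their calls were lost in 10 and 13 of 27 alternatives. The other called members were CD86, a costimulatory molecule, and the chemokine CXCL8. CD14, TLR2, TLR4, CD40, CD80, FCGR1A and NOS2 were not called. The summed linear level of the list was 2119.7 to 3345 on the cortex arrays and 4965 to 7289 on the hippocampus arrays. Such a sum is weighted toward the brightest members, among them the called CTSS and ITGB2, so it is not separate from their calls. No list member was without signal, as all 13 were well above background on at least 1 array. CTSS lost its call without cortex array 1, 3 or 4, and the list count was 0, 1 and 3 without these arrays, 3 without hippocampus array 3, 4 without hippocampus arrays 3 and 4, 1 with median centring and 0 with the slide block. The list median stayed between 0.35 and 0.53 in these fits. Of 9 lymphocyte genes 0 were called, and of 7 genes of the interferon response and antigen presentation 0 were called. MX1 and ISG15, interferon-induced genes, differed by -0.26 (SE 0.79, adjusted p = 0.872) and 0.36 (SE 0.36, adjusted p = 0.578), MX1 ranging from 6.82 to 11.01 among the hippocampus arrays. Complement C3, TLR3, IL1B and an MHC class II gene (MHCII-DRB1) were called higher in the hippocampus outside these lists.

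FCER1G is also one of 3 named genes whose near-identical probes parted by more than 0.9 in their difference. Its probes share 59 of 60 bases and gave 1.77 and 0.84. On hippocampus array 4 they read 10.38 and 7.48, and on the other 7 arrays they lay within 0.75 of each other. The probes of CRYAA, the lens crystallin alpha A, share 59 bases and gave -0.59 and -1.89. They lay within 0.172 of each other on every cortex array and parted by 0.29, 1.47, 1.51 and 2.41 on hippocampus arrays 1 to 4. The probes of BCL2, an inhibitor of apoptosis, share 58 bases and gave -2.80 and -1.48. On hippocampus array 3 they read 9.08 and 11.78. BCL2 was at 13.13, 12.53, 12.50 and 12.55 in cortex and 11.50, 10.97, 10.43 and 9.26 in hippocampus as the mean of both (-2.14, SE 0.42, adjusted p = 0.0244), and both probes were lower on every hippocampus array than on every cortex array. CRYAA differed by -1.24 (SE 0.25, adjusted p = 0.0251) and lost its call in 12 of 27 alternatives.

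Markers of tissue that borders the hippocampus varied from array to array. TTR, transthyretin, which the choroid plexus makes in bulk, was at 13.41, 9.26, 9.55 and 11.22 in cortex and 14.16, 11.06, 15.90 and 15.21 in hippocampus. The groups overlapped, and the difference of 3.22 (SE 1.18, adjusted p = 0.14) was not called. PTGDS, a prostaglandin D synthase of meninges, choroid plexus and oligodendrocytes, was at 10.93, 10.19, 10.45 and 10.82 in cortex and 12.15, 12.38, 11.93 and 11.97 in hippocampus (1.51, SE 0.19, adjusted p = 0.00555), with no overlap. It was the only called gene of 6 for choroid plexus and ependyma (16.7%) and of 19 for meninges, fibroblasts and matrix (5.26%). Of all genes with a symbol, 7.37% were called higher in the hippocampus. The summed level of the choroid plexus and ependyma list was 19969 to 29411 in cortex and 22674 to 78795 in hippocampus, highest on hippocampus array 3. This sum is also weighted toward the brightest members. The part of this tissue in the differences was not tested. Of 21 genes of endothelium and the blood-brain barrier 1 (4.76%) was called, LEF-1 again, with a list median of 0.00. APOA1, an apolipoprotein of fetal plasma, differed by -1.59 (SE 0.61, adjusted p = 0.149), and 0 of 6 fetal plasma proteins were called.

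Metabolic and enzyme genes added several of the largest differences. SLC2A5, the fructose transporter GLUT5, was at 7.77, 9.26, 7.69 and 8.80 in cortex and 10.59, 10.47, 10.66 and 10.87 in hippocampus (2.27, SE 0.34, adjusted p = 0.00992), again with cortex arrays 2 and 4 above 1 and 3. PTGS2, the inducible cyclooxygenase, was at 7.52, 7.57, 7.39 and 7.43 in cortex and 9.49, 9.37, 8.51 and 10.59 in hippocampus (2.01, SE 0.37, adjusted p = 0.0182). The cortex arrays lay within 0.18 of each other and the hippocampus arrays spread over about 2. CPT1B, a mitochondrial carnitine palmitoyltransferase, differed by 1.19 (SE 0.13, adjusted p = 0.00393), and PYGM, a glycogen phosphorylase, by 0.68 (SE 0.14, adjusted p = 0.0288), a call lost in 10 of 25 alternatives. With the processed signal PTGS2 differed by 3.89. In cortex the higher genes were ACLY, which makes acetyl-CoA for lipid synthesis (-1.25, SE 0.29, adjusted p = 0.0422), and TM7SF2, a sterol reductase of cholesterol synthesis (-0.86, SE 0.12, adjusted p = 0.00681). ACLY lost its call in 11 of 26 alternatives. Of 17 lipid and sterol genes, 1 was called in each direction (5.88% higher in the hippocampus). Of 15 genes of glycolysis and glucose uptake, 2 were called higher in the hippocampus (13.3%, median 0.10). Of all genes with a symbol, 7.37% were called higher in the hippocampus and 0.906% higher in the cortex. LDHA, lactate dehydrogenase A, differed by 0.45 (SE 0.16, adjusted p = 0.127).

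MET, the receptor of hepatocyte growth factor, was at 7.45, 7.49, 7.20 and 7.58 in cortex and 10.01, 8.67, 9.07 and 8.85 in hippocampus (1.72, SE 0.27, adjusted p = 0.0113). WT1, a transcription factor best known from kidney and gonad, was at 6.30, 6.58, 6.38 and 6.93 in cortex, with 1 of 4 arrays well above background, and 7.88, 8.64, 8.49 and 8.20 in hippocampus (1.76, SE 0.20, adjusted p = 0.00437, and 5.23 with the processed signal). Growth factors and the TGF-beta family formed the longest list, with 45 entries tested for 44 genes, 4 called higher in the hippocampus, 0 higher in the cortex and a median of 0.11. The share called, 9.09%, was near the 7.37% of all genes with a symbol. Beside MET these were BMPR1B, a BMP receptor (1.13, SE 0.24, adjusted p = 0.0292), FGF10 (0.55, SE 0.12, adjusted p = 0.031) and MSTN, myostatin (0.55, SE 0.10, adjusted p = 0.0203). The calls were lost in 8 of 25 alternatives for BMPR1B and MSTN and in 10 of 26 for FGF10, which differed by 3.10 with the processed signal. CITED2, a transcriptional co-regulator, was higher in cortex, at 8.72, 8.69, 8.79 and 8.78 against 7.96, 7.70, 7.43 and 7.29 (-1.15, SE 0.16, adjusted p = 0.00681).

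SPA17, first described in sperm and also found in ciliated cells, was at 9.58, 10.19, 8.84 and 10.26 in cortex and 12.14, 12.86, 11.51 and 12.82 in hippocampus (2.61, SE 0.39, adjusted p = 0.00982). ANXA2, a membrane-binding annexin, differed by 1.36 (SE 0.18, adjusted p = 0.00582). CRYAB, a small heat shock protein of glia and lens, differed by 1.38 (SE 0.23, adjusted p = 0.013) and was the 1 called gene of 12 heat shock and immediate early genes and of 4 oligodendrocyte genes. These shares were 8.33% and 25%, beside 7.37% of all genes with a symbol. Lists of general cell functions were too short to set their shares apart from that 7.37%. They held 0 of 9 for oxidative phosphorylation, 0 of 12 for oxygen-responsive genes and 1 of 14 (7.14%), CTSS, for the lysosome. For ribosomal proteins and translation factors 1 of 21 (4.76%) was called. That gene was RPS6, at 0.54 (SE 0.12, adjusted p = 0.0361) after quantile normalization but at -0.16 with Agilent's processed signal, scaled by its 75th percentile, and -0.11 with median centring, so its direction depended on the scaling.

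**Figure D4:**
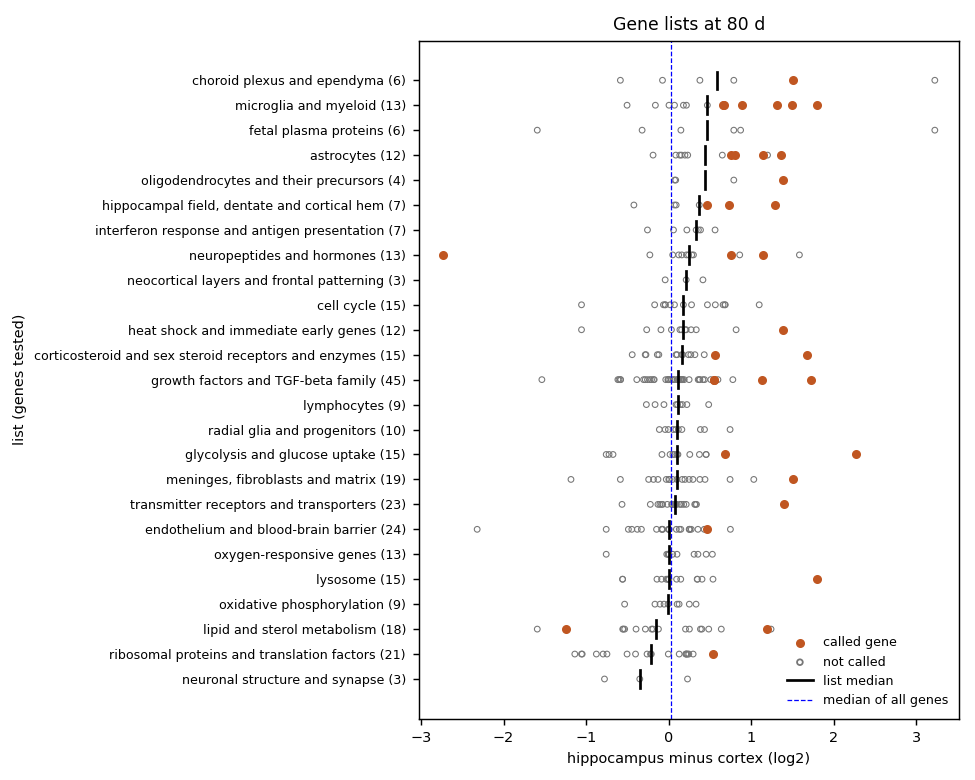
Hippocampus minus cortex difference (log2) of each tested gene of 25 lists, with called genes filled, list medians as black bars and the median of all genes (0.03) as a dashed line. Calls in the direction of the hippocampus gather in the microglia and myeloid list (6 of 13) and the astrocyte list (4 of 12 entries, with connexin 43 under 2 names). Of all genes with a symbol, 7.37% were called higher in the hippocampus.

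Probes without a gene symbol gave 626 of the 690 calls. The largest rise was at A_70_P045016, from 8.0, 7.38, 7.92 and 7.94 in cortex to 10.39, 11.33, 11.45 and 11.49 in hippocampus (3.36, SE 0.26, adjusted p = 0.00155). A_70_P026901 rose from 8.54, 10.17, 8.88 and 9.21 to 12.31, 12.38, 12.32 and 12.44 (3.16, SE 0.31, adjusted p = 0.00313), and the hippocampus arrays lay within 0.13 of each other. The largest fall was at A_70_P032706, at 13.87, 13.68, 13.81 and 14.19 in cortex and 9.96, 11.19 and 7.51 on hippocampus arrays 1, 3 and 4. Its spot on hippocampus array 2 carried an outlier mark and was left out (-4.33, SE 0.74, adjusted p = 0.0182, 7 arrays). A_70_P013826 was at 13.23, 12.32, 13.24 and 12.57 in cortex and 10.68, 8.65, 8.17 and 9.09 in hippocampus (-3.69, SE 0.50, adjusted p = 0.00677). These 4 probes were picked among called genes without overlap between the regions, so their lack of overlap follows from the choice. They also had to be well above background on all 4 arrays of the higher region.

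The other regions at the same age place these differences. Among the 15 genes with the largest rise in the hippocampus, the hippocampus had the highest mean of the 4 regions for 8, and the cortex had the lowest for 14. For 12 of the 15 all cortex arrays lay below all 12 arrays of the other regions, and for 3, NPVF, PTGS2 and MET, all hippocampus arrays lay above all 12 others. The genes were chosen for cortex and hippocampus arrays that did not overlap, so 4 of each 12 arrays lay on that side by choice. Only the brainstem and hypothalamus arrays add to it, and the shares over all genes were not computed. The ranks of the means are bound by the same choice, so these counts have no reference to be read against. CTSS had means of 11.15 in brainstem and 11.38 in hypothalamus beside 11.20 in hippocampus and 9.41 in cortex. HSD11B1 had 9.38 in brainstem and 9.86 in hypothalamus beside 9.90 in hippocampus and 8.23 in cortex. For CTSS and HSD11B1 the brainstem and hypothalamus means were closer to the hippocampus than to the cortex. NPVF had 7.54 ± 0.12 in brainstem and 8.73 ± 0.27 in hypothalamus, where this peptide is classically made, beside 9.98 ± 0.58 in hippocampus and 6.99 ± 0.63 in cortex (SD, n = 4). All 7 genes higher in cortex had their highest mean there, and for UNC, SSTR2, BCL2 and CRYAA every cortex array was above all 12 others. The same limit of choice holds for these 7. UNC had 8.18 in brainstem and 8.45 in hypothalamus. GFAP and PTGDS had their highest means in brainstem, at 10.69 and 14.46. Each region was again on slides of its own.

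Later ages were measured on other animals and showed part of the 80 d pattern, in one limma fit of the 47 cortex and hippocampus arrays. Of the 549 genes higher in the hippocampus at 80 d, 135 were called higher there at 100 d (24.6%, where 1.75% of all genes were), 133 at 120 d (24.2% against 3.29%), 161 at 130 d (29.3% against 8.86%), 141 at 145 d (25.7% against 5.83%) and 101 at 1 d after birth (18.4% against 3.15%). Of the 141 genes higher in cortex, 39 were called higher in cortex at 100 d (27.7% against 1.11%), 33 at 120 d (23.4% against 2.18%), 42 at 130 d (29.8% against 7.42%), 45 at 145 d (31.9% against 4.12%) and 34 at 1 d after birth (24.1% against 3.2%). With each later age fitted on its own arrays, 45 of the 549 were called at 100 d, 13 at 120 d, 146 at 130 d, 115 at 145 d and 11 after birth, and of the 141 the counts were 8, 10, 35, 36 and 14. On simulated data the fit of 47 arrays made more false calls at 145 d than its threshold allows. The slides of the 80 d arrays also held later ages of the same region, so recurrence across ages cannot tell region from slide. The median difference of the 549 was 0.61 at 100 d and 0.35 after birth. At all 6 ages 48 genes were called higher in the hippocampus and 14 in the cortex, and 6 of the 48 had a symbol (AANAT, CALML4, CPT1B, CRYAB, NTN4 and SPA17). SPA17 differed by 2.18, 2.07, 2.65, 2.11 and 1.88 at the 5 later ages, and CRYAB by 1.95, 2.50, 2.79, 2.66 and 2.48.

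Other genes had a smaller difference at 145 d than at 80 d. The change of the difference from 80 d to 145 d was tested as an interaction, which called 107 genes (0.92% of those tested), 33 of them among the 549 and 10 among the 141. The difference was higher at 145 d for 42 of the 107 and lower for 65. The genes below were named for their differences at 80 d, and the interaction uses the same 80 d arrays. Some narrowing is therefore expected from the choice alone. NPVF differed by 3.99, 3.90, 2.98, 1.18 and 0.68 at the later ages, and was still called higher in the hippocampus at 145 d (limma adjusted p = 0.00645). Its hippocampus mean was 9.98 ± 0.58 at 80 d, 11.13 ± 0.63 at 100 d (n = 3) and 7.72 ± 0.40 at 145 d, while the cortex mean lay between 6.48 and 7.14 at all ages. The interaction was -1.82 (SE 0.41, adjusted p = 0.0135). NEUROD1 differed by 0.55, 0.21, -0.20, -0.07 and 0.26 at the later ages, its hippocampus mean falling from 13.03 ± 0.09 at 80 d to 10.79 ± 0.12 at 145 d and its cortex mean from 11.74 ± 0.27 to 10.86 ± 0.15 (interaction -1.35, SE 0.33, adjusted p = 0.027). MET differed by 1.33, 0.12, 0.05, -0.56 and 0.22 (interaction -2.28, SE 0.57, adjusted p = 0.0333), and its cortex mean was 7.43 ± 0.16 at 80 d and 8.57 ± 0.19 at 145 d.

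The fit of 47 arrays had larger standard errors for the myeloid genes than that of the 8 arrays at 80 d (0.82 to 0.89 for CTSS, against 0.35), so their counts are not of the same form. Of the 6 called at 80 d, 0 were called higher in the hippocampus at 100, 120 and 130 d, 1 at 145 d and 0 after birth. The shares of all genes called higher there were 1.75, 3.29, 8.86, 5.83 and 3.15%. The median difference of the 6 was 0.36, 0.01, 0.22, 0.11 and 0.19 at the later ages. That of all 13 list members was 0.22, -0.18, -0.18, -0.19 and -0.24, against 0.47 at 80 d. CTSS had 9.41 ± 0.63 in cortex at 80 d and 10.96 ± 0.14 at 145 d, and 11.20 ± 0.54 and 10.28 ± 1.45 in hippocampus (interaction -2.47, SE 1.16, adjusted p = 0.446). The spread of the hippocampus arrays at later ages was wide, and the change of the difference was not called. FCER1G differed by 1.63 at 100 d (SE 0.57), more than at 80 d but without a call, and by 0.13 to 0.40 afterwards. HSD11B1 differed by 1.27 at 100 d (adjusted p = 0.00475) and by 0.74, 0.64, 0.70 and 0.43 afterwards, without a call. UNC differed by -1.56, -0.53, -0.05, -1.17 and -0.72, with no call at a later age (interaction 1.56, SE 0.82, adjusted p = 0.516). SSTR2 was again called higher in cortex at 130 d, 145 d and after birth, with differences of -1.09, -1.49 and -1.33.

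**Figure D5:**
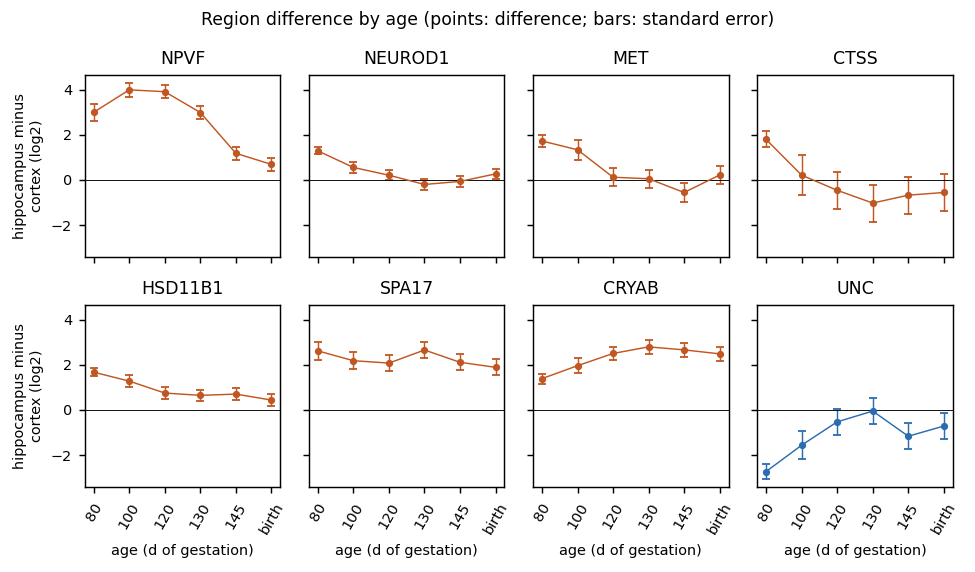
Hippocampus minus cortex difference (log2, with standard error) of 8 genes at 6 ages, from 80 to 145 d of gestation and after birth. NPVF falls from 3.99 at 100 d to 0.68 after birth, and SPA17 and CRYAB stay above 1 at every age.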

How the data were processed

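RNA was measured on one-colour Agilent sheep arrays. The deposited files hold, before any normalization between arrays, the mean and background intensity of each spot as the authors' scanner software wrote them, and the authors also gave normalized log2 values in a table of the series (deposited with the arrays), used as an alternative. With limma 3.58.1 in R 4.3.3, intensity was corrected by normexp (offset 50), which narrows differences of dim probes, and quantile normalized over all 95 arrays. Outlier-marked spots were left out. Of 15008 probes, 12051 were kept (those reaching, on 4 or more of the 8 arrays, 1.1 times the 95th percentile over 77 negative control spots). Probes of one gene were averaged. A gene symbol was assigned to 1545 probes. Most of these were matched to RefSeq symbols by accession, gene identifier or name. The other 210, among them the probes of UNC, had no such match. They kept the gene name given in the array's own annotation, which is counted as a symbol throughout. lmFit and eBayes compared the 8 arrays, with Benjamini-Hochberg adjustment over all genes. Later ages were contrasts in a fit of 47 arrays.

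Named genes were the 15 largest called differences in each direction that had a symbol, did not overlap and were well above background on all 4 arrays of the higher region (7 existed for cortex), of each list the called members, up to 4, or the 2 brightest, and measured members of the hippocampal, cortical and steroid lists. The members and lists were chosen with earlier results of these data known. CD14, the other uncalled list members and genes outside the lists were named after their values were seen. The check of near-identical probes was added after the values were seen. The fits were tested on simulated data, where both called more false genes than the threshold allows, most at 145 d. The shares of spots well above background were compared by an exact permutation test. Signal over background and the number of arrays limit precision. One of the 22 genes with the largest differences is counted but not reported here by name.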

Additional observations from a re-analysis of the deposited data

Results flagged for a closer look

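In 5 of 130 groups of 4 arrays checked, 1 array lay far from the rest, where about 1 in 20 groups does so by chance. The figure is the gap to the nearest array over the range of the group. NPVF in cortex had 0.878, from cortex array 2 at 7.93 against 6.62 to 6.78. BCL2 in cortex had 0.915, from array 1 at 13.13 against 12.50 to 12.55. LEPR in cortex had 0.878, from array 2 at 6.76 against 6.60 to 6.62. YWHAH in hippocampus had 0.857, from array 4 at 12.50 against 15.84 to 16.40. The share of spots well above background had 0.898 in cortex, from array 4 at 77.7% against 74.6 to 74.9%.

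The hippocampus minus cortex difference was smaller at 145 d than at 80 d for NPVF (1.18 against 2.99, limma interaction adjusted p = 0.0135), for NEUROD1 (-0.07 against 1.28, adjusted p = 0.027) and for MET (-0.56 against 1.72, adjusted p = 0.0333). These genes were named for their differences at 80 d, so some narrowing is expected from the choice.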

How the results depend on the processing

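At 80 d the counts of genes called, higher in hippocampus and higher in cortex (690, 549 and 141) became 1052 and 850 (called and hippocampus) with the processed signal, 59, 35 and 24 with median centring, 1509, 1125 and 384 with the 16 arrays of 4 regions in one fit, 2034, 1193 and 841 with array weights and 7, 6 and 1 with the slide as a random block. With all 95 arrays in one fit 290 were higher in cortex. Leaving out each array in turn gave 163 to 775 called, 129 to 556 in hippocampus and 34 to 219 in cortex. Same-numbered arrays showed no clear shared deviation (correlations -0.03, 0.00, 0.13 and 0.09), and whether they share a fetus is unknown. The replicate block gave 247, 193 and 54. Alternatives chosen after seeing the data gave 423 and 296 (called and hippocampus) without hippocampus arrays 3 and 4, 225 in cortex with the surface removed and 68 in cortex without probes at the edges. With each later age fitted alone, 45, 13 and 11 of the 549 and 8, 10 and 14 of the 141 were called at 100 d, 120 d and after birth, and 83 of the 549 at 100 d with the replicate block. Of the 690 called genes 3 turned direction with the processed signal and 1 with median centring. Among the named genes RPS6 and genes without a call turned. With the processed signal PAX6 was 0.44, YBX1 -0.39, MX1 0.012, ATP5MC2 -0.32 and RPS6 -0.16. With median centring YBX1 was -0.41, ATP5MC2 -0.092 and RPS6 -0.11. PAX6 was 0.16 for a single probe, the brightest probe and without edge probes, 0.033 with weights and 0.078 with the surface removed. YBX1 was -0.045 for a single probe, -0.068 with weights and -0.038 without hippocampus arrays 3 and 4. MX1 was 0.88 with weights, 1.26 without those arrays and 0.081 with the surface removed, LCK 0.0027 with the surface removed, CALM2 0.0087 without those arrays and SLC25A5 0.054 with the slide block. Leaving out each array in turn gave -0.36 to 0.28 for PAX6, -1.17 to 0.13 for YWHAH, -0.56 to 0.0087 for CALM2, -0.051 to 0.11 for YBX1, -0.13 to 0.013 for LCK, -0.92 to 0.47 for MX1 and -0.086 to 0.13 for SLC25A5. The causes were not tested.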

Other observations

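Within the cortex, arrays 2 and 4 both lay above arrays 1 and 3 for PAX6 (10.01 and 10.05 against 8.12 and 8.11), SLC2A5 (9.26 and 8.80 against 7.77 and 7.69), CTSS (10.17 and 9.65 against 9.09 and 8.73), ITGB2 (8.95 and 8.64 against 8.21 and 7.89), SPA17 (10.19 and 10.26 against 9.58 and 8.84) and BMPR1B (10.85 and 10.72 against 9.96 and 9.88). Arrays 1 and 2 shared a slide and arrays 3 and 4 did not. These genes were picked after their values were seen, and no cause was tested.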
